A study of Mus musculus with 38 samples.

Results

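The interstitial macrophage population IM3, high in MHC class II and low in the mannose receptor CD206, was compared with alveolar macrophages (AM) of the mouse lung by RNA sequencing. The comparison rests on the libraries that the labels give to these populations: 3 IM3 libraries and 3 AM libraries (replicates A, B and C), which are 6 of the 12 libraries of the series and 18 of its 38 sequencing runs. IM3 cells were MerTK-enriched, CD64+, CD11b+ and CD11c+ cells that were CD206lo and MHCII+, gated without Siglec F, CD24, CD43, Ly6G, B220, CD3 and NK1.1. AM were sorted separately as CD11c+ Siglec F+ cells without CD11b, CD103, Gr1, B220, CD3 and NK1.1. IM1 and IM2 (3 libraries each) are the CD206-high interstitial populations, MHC class II low in IM1 and high in IM2, and both are CD11clo. They serve here to find differences from AM that are seen in IM3 alone and genes that IM3 shares with AM. All groups came from C57Bl/6 mice of 8 to 10 weeks at steady state, with lungs digested in 0.5 mg/ml Liberase for 30 minutes, about 50000 sorted cells and 2 ng of RNA.

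Alveolar macrophages lie on the air side of the lung epithelium, where they take up surfactant lipid and divide locally, and their identity depends on GM-CSF signalling and the nuclear receptor PPARγ. Interstitial macrophages lie in the tissue around airways and vessels, depend on CSF1 receptor signalling and differ in how far they are replaced by blood monocytes. MHC class II molecules carry peptides from endocytosed protein to CD4+ T cells: the class II α and β chains assemble with the invariant chain (Cd74), H2-DM exchanges the remnant of that chain for peptide, H2-O restrains H2-DM, and the coactivator CIITA acts with the RFX and NF-Y complexes on the promoters of these genes.

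The 12 libraries held 11818981 to 15758326 reads assigned to genes, so that 0 counts in a library allow up to 0.254 CPM (counts scaled to a common library total) in the shallowest of them. IM3 libraries had 18281 to 18534 genes with a count, against 16050 to 16475 in AM libraries. Levels below are CPM after TMM scaling (a correction of library size from the bulk of genes). Fold changes are log2 of IM3 over AM from 1 edgeR fit. Their standard error (SE) was derived as the absolute log2 fold change divided by the square root of the F statistic of the test. It is approximate, above all for genes with few or no counts in a population. Markers of other cell types moved with the comparison. Of 10 fibroblast markers, 7 were at 0 in AM and none in IM3, with Col3a1 at 25.03 to 42.73 CPM in IM3 (unscaled, as for the markers that follow) and 0 in AM. The fibroblast list summed to 1073 to 1460 CPM in IM3 and 423.8 to 524.6 CPM in AM, most of it Gsn. Of 10 endothelial markers, 8 were at 0 in AM and none in IM3, where Cdh5 lay between 2.547 and 3.262 CPM. The endothelial list summed to 70.82 to 96.6 CPM in IM3 and 91.95 to 110.9 CPM in AM, where nearly all of it was Vwf. The 10 B cell markers summed to 714.3 to 810.5 CPM in IM3 and 136.2 to 167.1 CPM in AM. Ighm, the heavy chain of IgM, stood at 662.8 to 762.3 CPM in IM3 and at most 0.5711 in AM, and Cd79b at 32.65 to 34.43 CPM in IM3 and 0 in AM. Cd22 was lower in IM3, with 9.68 to 11.32 CPM in IM3 and 135.5 to 165.5 CPM in AM, and Pax5 was at 0 in both. Erythroid markers summed to 0.9032 to 11.14 CPM in IM3 and 325.3 to 395.3 CPM in AM, with Slc4a1 at 0 in both. The part of these cells in the results was not tested, and in sorted bulk samples fewer cells of a type cannot be told apart from less RNA per cell. IM3 replicate B held 650 CPM of the T cell receptor constant gene Trac, which was 0.0662 and 0 CPM in the other IM3 libraries and 0 in all AM libraries. AM replicate C held 1152 CPM of the splicing factor gene Sf1, against 149 and 154 CPM in the other AM libraries. Both genes were among those tested, and Sf1 is counted among the genes called lower in IM3.

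The genes that encode the gated proteins followed the gates in part. Itgam (CD11b) had 778, 785 and 823 CPM in IM3 and 10.1, 7.23 and 11.9 CPM in AM, a log2 fold change of 6.35 ± 0.22 (SE; adjusted p = 1.86e-12). Siglecf had 3.51, 3.15 and 3.18 CPM in IM3 and 447, 425 and 409 CPM in AM, a log2 fold change of -7.02 ± 0.25 (adjusted p = 2.77e-12). Cd24a, another protein gated out of IM3, stood at 0.541 to 2.38 CPM in IM3 and 223 to 260 CPM in AM. Each of these separated the populations without overlap. Of 14 tested gate genes, 7 were higher and 6 lower in IM3. Mrc1, which encodes CD206, had 699, 769 and 771 CPM in IM3 and 1026, 967 and 1006 CPM in AM, a log2 fold change of only -0.42 ± 0.13 (adjusted p = 0.0113, a call lost under some alternative settings), and AM were not gated on CD206. Its mean was 2149 CPM in IM1 and 2204 CPM in IM2, so IM3 lay closer to AM than to the other interstitial populations. Itgax (CD11c) had 418, 429 and 510 CPM in IM3 and 884, 918 and 916 CPM in AM (log2 fold change -1.0 ± 0.24), and averaged 21.9 CPM in IM1 and 90.1 CPM in IM2. Mertk and Fcgr1 (CD64), the general macrophage markers of the sort, were called in opposite directions: Mertk was lower in IM3 (log2 fold change -1.04 ± 0.14) and Fcgr1 higher (0.89 ± 0.16). Klrb1c, the gene of the excluded NK1.1 antigen, was at 5.69 to 7.63 CPM in IM3 and at most 0.42 CPM in AM, and the 8 natural killer cell markers, of which it is 1, had an unscaled sum of 5.859 to 7.99 CPM in IM3 and at most 0.392 CPM in AM. Of those markers, 5 were at 0 in every IM3 library and 6 in every AM library. Spn (CD43) was higher in IM3, from which CD43+ cells were gated out, with 24.7, 26.6 and 27.7 CPM in IM3 and 17.8, 19.4 and 19.9 CPM in AM (log2 fold change 0.47 ± 0.16). Itgae (CD103) was lower in IM3, although CD103+ cells were gated out of AM, with 0.265, 0.293 and 0.0677 CPM in IM3 and 1.47, 0.912 and 0.736 CPM in AM (log2 fold change -2.28 ± 0.75). Both calls were lost without AM replicate A, among other alternatives. Ptprc (CD45) was not called, with 877 to 1019 CPM in IM3 and 907 to 947 CPM in AM. Ly6g and Cd3e did not pass the filter on low counts.

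Of 14095 genes tested, 8094 (57.4%) were called at an adjusted p under 0.05, 4565 (32.4%) higher in IM3 and 3529 (25.0%) lower in IM3 (edgeR quasi-likelihood test, Benjamini-Hochberg adjustment). A difference of at least 2-fold was called for 3207 genes (22.8%) in the higher direction and 1814 genes (12.9%) in the lower. These shares are the background against which the gene lists below are to be read. They cover all tested genes, low-count genes included. A share for genes at the expression level of the list members was not computed. The median log2 fold change over all tested genes was 0.09. Every IM3 library lay above every AM library for 5308 genes (37.7%) and below for 4558 genes (32.3%).

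**Figure D1:**
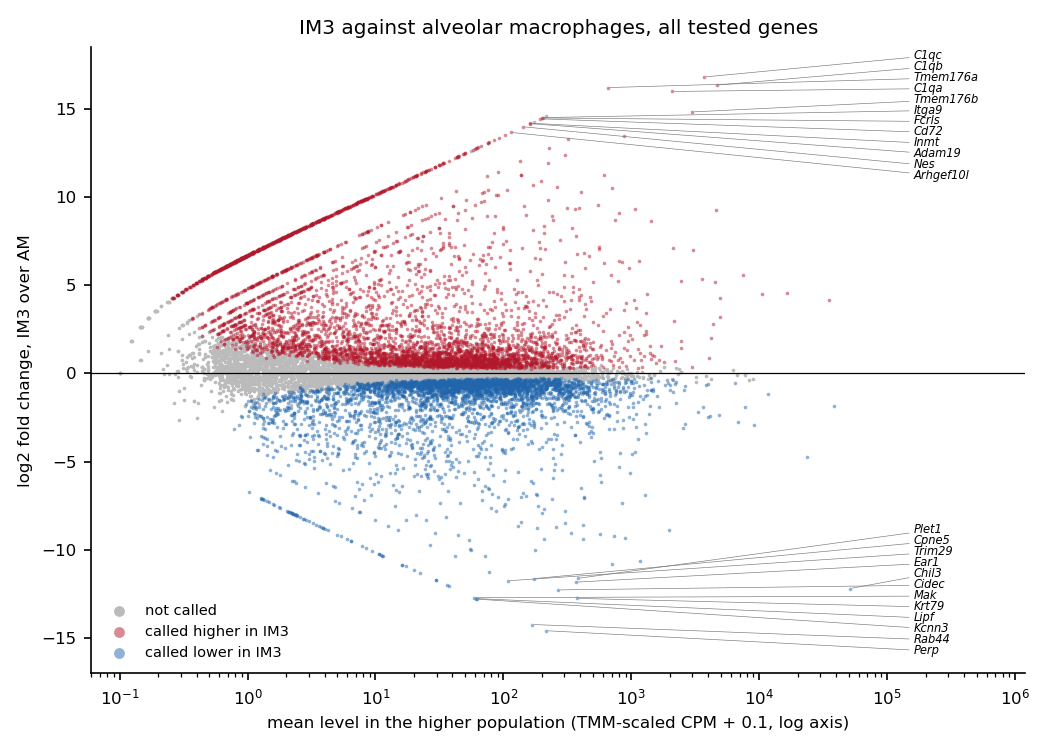
Log2 fold change of IM3 over AM (vertical axis) against the mean level in the higher of the 2 populations (horizontal log axis, TMM-scaled CPM + 0.1) for the 14095 tested genes, with the genes called higher in IM3 in red and lower in blue. The straight upper edge is formed by genes without a count in AM, whose fitted fold change depends on the prior count; the 24 labelled genes are those with the widest called differences among genes of at least 50 CPM.

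Genes of the complement component C1q, the recognition subunit of the classical complement pathway, headed the genes higher in IM3. C1qc (mm10 chr4:136889804-136893065) had 3975, 3622 and 3534 CPM in IM3 and 0, 0 and 0.0736 CPM in AM, which rests on 1 read in AM (ratio 156394, 95% exact binomial interval 28069 to 6177285, counting error only). C1qb and C1qa, its neighbours on chromosome 4, stood at 4315 to 4868 CPM and 1936 to 2274 CPM in IM3, with 2 reads and 1 read in AM. All 3 chains of C1q were thus at the limit of detection in AM and abundant in every IM3 library. The membrane protein genes Tmem176a and Tmem176b, an adjacent pair on chromosome 6, showed the same pattern: Tmem176a had 670, 703 and 604 CPM in IM3 and no count in AM, at least 9235-fold higher in IM3 (taken against 3 counts over the 3 AM libraries). Tmem176b had 2836, 3197 and 2945 CPM in IM3 and at most 0.147 CPM in AM. The other genes named by the same rule had no count in any AM library.

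These genes were surface receptors, enzymes and cytoskeletal proteins. Itga9, the α9 integrin subunit, had 189, 186 and 237 CPM in IM3 (at least 2867-fold higher). Fcrls, a scavenger-type Fc receptor-like gene also known as a microglial marker in mice, had 216, 189 and 198 CPM (at least 2828-fold higher), and its level was several times higher still in IM1 and IM2, with means of 1208 and 912 CPM. Cd72, an inhibitory receptor with an immunoreceptor tyrosine-based motif, had 200, 184 and 198 CPM (at least 2724-fold higher) and was lower in IM1 and IM2, at 39.4 and 61.4 CPM on average. Inmt, an indolethylamine methyltransferase, had 127, 174 and 186 CPM in IM3 (at least 2270-fold higher). Of 10 fibroblast markers, 7 were also at 0 in AM and none in IM3. The part of fibroblasts in the level of Inmt was not tested. Adam19, a membrane-bound metalloprotease, had 173, 140 and 168 CPM in IM3 (at least 2262-fold higher). Nes, the intermediate filament nestin, had 135, 107 and 183 CPM in IM3 (at least 2003-fold higher), with 19.2 CPM in IM1 and 30.6 CPM in IM2 on average. Arhgef10l, a guanine nucleotide exchange factor, had 122, 102 and 117 CPM in IM3 (at least 1601-fold higher). Cd72 and Nes were both higher in IM3 than in IM1 and IM2, whereas Arhgef10l was not.

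In the other direction stood genes of the alveolar macrophage programme and several genes better known from epithelium. Chil3, a chitinase-like secreted protein known as Ym1, had 12.1, 5.87 and 15 CPM in IM3 and 54699, 48101 and 51027 CPM in AM (log2 fold change -12.19 ± 0.61, adjusted p = 1.08e-10). Perp, a desmosome-associated membrane protein, had no count in IM3 and 236, 213 and 196 CPM in AM, at least 3126-fold higher in AM. Krt79, a keratin, had 2 reads over the IM3 libraries and 403, 383 and 347 CPM in AM. A lack of overlap between the populations was a condition of the rule that named these genes. Rab44, a large Rab GTPase, had no count in IM3 and was at least 2439-fold higher in AM. Kcnn3, a calcium-activated potassium channel, had no count in IM3 and was at least 898-fold higher in AM, and Mak, a serine/threonine kinase, was at least 852-fold higher. Lipf, the gastric lipase gene, had no count in any IM3, IM1 or IM2 library and 55.5, 63.4 and 63.1 CPM in AM, at least 880-fold higher in AM than in IM3. Cidec, a lipid droplet protein, had 2 reads in IM3 and 302, 252 and 254 CPM in AM. Ear1, an eosinophil-associated ribonuclease with close paralogs whose reads the counting may not separate, had 4 reads in IM3 and 335 to 403 CPM in AM. Trim29 (1 read in IM3), Cpne5 (2 reads) and Plet1 (5 reads) completed the 12, with levels in AM of 102 to 122 CPM, 158 to 197 CPM and 365 to 418 CPM.

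Of 27 alveolar macrophage markers, 26 were lower and none higher in IM3, and the median log2 fold change was -8.46. The marker list was put together with results of these data known, so its direction is not independent evidence. Pparg, the nuclear receptor that sets the alveolar programme, had 40.3, 47.7 and 49.1 CPM in IM3 and 207, 205 and 181 CPM in AM (log2 fold change -2.11 ± 0.17, adjusted p = 2.68e-08), a gene chosen after its values were seen. Its mean in IM1 and IM2 was 13.8 and 15.3 CPM, so IM3 stood between these and AM. Csf2ra, the α chain of the GM-CSF receptor, was the marker not called: 963, 948 and 857 CPM in IM3 and 1047, 1024 and 1018 CPM in AM, against means of 375 and 541 CPM in IM1 and IM2. Csf2rb, the signalling chain of the same receptor, did fall, with 201, 208 and 196 CPM in IM3 and 599, 583 and 569 CPM in AM (log2 fold change -1.54 ± 0.13, adjusted p = 5.56e-08). All 18 interstitial macrophage markers were higher in IM3, at a list median log2 fold change of 9.12, and all 18 were also higher than AM in IM1 and in IM2. Over all tested genes, 33.1% were called higher and 25.7% lower than AM in IM1, and 34.3% higher and 26.2% lower than AM in IM2. Csf1r, the receptor for the macrophage growth factor CSF1 (chosen after its values were seen), had 4929, 4744 and 5085 CPM in IM3 and 506, 600 and 537 CPM in AM, an 8.98-fold difference.

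Of 17 MHC class II presentation genes, 12 were higher in IM3 and 1 lower, with 4 not called and a median log2 fold change of 2.16. H2-Aa, the α chain of I-A (mm10 chr17), had 10464, 11066 and 10046 CPM in IM3 and 323, 550 and 535 CPM in AM, a log2 fold change of 4.49 ± 0.2 (adjusted p = 3.40e-11). H2-Ab1, its β chain, had 15928, 17377 and 16074 CPM in IM3 and 482, 778 and 800 CPM in AM (log2 fold change 4.58 ± 0.2). H2-Eb1, the β chain of I-E, had 7886, 7831 and 6839 CPM in IM3 and 118, 167 and 192 CPM in AM (log2 fold change 5.56 ± 0.2, adjusted p = 2.44e-12). Every IM3 library lay far above every AM library for all 3 chains, and MHC class II protein was part of the IM3 gate. The invariant chain Cd74 had 32297 to 37664 CPM in IM3 and 1473 to 2199 CPM in AM, an 18.1-fold difference. Ciita, the coactivator of class II promoters, had 277, 318 and 331 CPM in IM3 and 20.1, 32.5 and 28.9 CPM in AM, an 11.4-fold difference. Cd74 and Ciita were chosen for description after their values were seen.

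Against IM1 and IM2 the class II genes separated further. Of the 17 genes, 10 were higher in IM3 than in both IM1 and IM2, against 4.36% of all tested genes. MHC class II protein was part of the gate that divides IM1 from IM3, so this count is given as a description. H2-Aa averaged 478 CPM in IM1 and 7109 CPM in IM2, and Ciita had 11.7, 16.4 and 19.2 CPM in IM1 and 146, 197 and 204 CPM in IM2. In IM1, 6 class II genes were lower than in AM and 4 higher; in IM2, 3 were lower and 12 higher. The peptide exchange factor genes rose less than the chains: H2-DMa had 909, 1040 and 831 CPM in IM3 and 390, 368 and 359 CPM in AM (log2 fold change 1.32 ± 0.13). H2-DMb1 had 1234, 1302 and 1239 CPM in IM3 and 230, 319 and 293 CPM in AM (log2 fold change 2.16 ± 0.15). H2-DMb2, a second H2-DM β chain close in sequence to the first, had 42.7, 43.6 and 42.1 CPM in IM3 and 17.1, 11.1 and 16.2 CPM in AM (log2 fold change 1.53 ± 0.2). It was the only class II gene that met the rule for being higher than AM in IM3 alone: it had 3.5, 6.43 and 4.87 CPM in IM1 and 16.8, 18.7 and 19.6 CPM in IM2.

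The H2-O subunits did not move together. H2-Ob, the β chain, had 28.5, 34.7 and 33 CPM in IM3 and 0.28, 0 and 0.0736 CPM in AM, a log2 fold change of 7.97 ± 0.37 (adjusted p = 4.69e-11). H2-Oa, the α chain, was not called, with 3.04, 7.19 and 2.98 CPM in IM3 and 3.15, 3.93 and 5.74 CPM in AM (log2 fold change 0.04 ± 0.38, adjusted p = 0.938). H2-Oa was lower in IM1 and IM2, with means of 0.226 and 0.992 CPM, and so was among the genes that IM3 shares with AM. H2-Eb2, a low-level β chain, had 0.53 to 1.29 CPM in IM3 and 1 read in AM (ratio 41.6, 95% interval 7.08 to 1681). Rfxap, a subunit of the RFX complex, rose (log2 fold change 1.38 ± 0.15), while Rfxank was not called with 8.25 to 10.9 CPM in IM3 and 8.27 to 11 CPM in AM. The endosomal protease gene Ctss was not called either, with 2195 to 3078 CPM in IM3 and 2896 to 3452 CPM in AM, whereas Lgmn, an endosomal cysteine protease, rose to 822, 842 and 750 CPM in IM3 against 178, 188 and 159 CPM in AM. Ifi30, a thiol reductase that unfolds endocytosed antigen, was the 1 lower gene, with 167, 164 and 131 CPM in IM3 and 240, 205 and 250 CPM in AM (adjusted p = 0.0254), a call that was lost under some alternative settings.

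**Figure D2:**
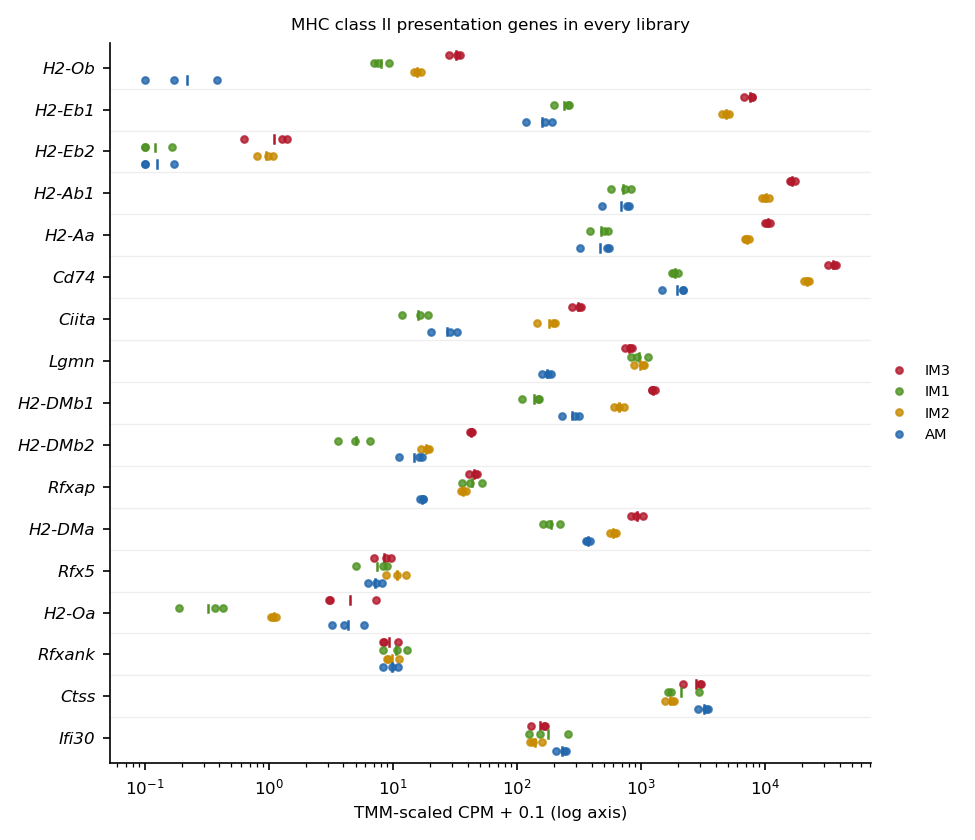
TMM-scaled CPM + 0.1 (horizontal log axis) of the 17 MHC class II presentation genes in each library of IM3, IM1, IM2 and AM (points, with a bar at the mean of 3 libraries). IM3 lies to the right of AM for 12 genes, from H2-Ob at the top to H2-DMa, and of both IM1 and IM2 for 10, while H2-Oa is level between IM3 and AM.

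Class II promoters carry a conserved module whose last element, the Y box, binds NF-Y and has GATTGG as its core (CCAAT on the other strand). The 250 bases before the start of 4 genes are printed to set this element beside 3 patterns of the data: H2-Aa and H2-Eb1, many times higher in IM3 than in AM; H2-DMb2, higher than AM in IM3 alone; and H2-Oa, level in IM3 and AM. Sequences are RefSeq's on GRCm38.p6, 5′ to 3′ on the gene's strand, at chr17:34287824-34288073 (minus strand) for H2-Aa, chr17:34305617-34305866 (plus) for H2-Eb1, chr17:34144999-34145248 (plus) for H2-DMb2 and chr17:34092129-34092378 (plus) for H2-Oa. Capitals mark GATTGG on either strand.
H2-Aa: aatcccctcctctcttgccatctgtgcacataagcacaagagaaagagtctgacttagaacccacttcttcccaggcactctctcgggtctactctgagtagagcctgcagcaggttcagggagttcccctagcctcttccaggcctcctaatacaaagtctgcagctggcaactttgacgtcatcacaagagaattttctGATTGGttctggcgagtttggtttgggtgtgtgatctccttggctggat
H2-Eb1: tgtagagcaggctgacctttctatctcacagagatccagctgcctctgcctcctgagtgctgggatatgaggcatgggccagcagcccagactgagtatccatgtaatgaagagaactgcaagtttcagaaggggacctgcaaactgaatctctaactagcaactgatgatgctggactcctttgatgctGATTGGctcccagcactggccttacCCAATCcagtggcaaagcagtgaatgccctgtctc
H2-DMb2: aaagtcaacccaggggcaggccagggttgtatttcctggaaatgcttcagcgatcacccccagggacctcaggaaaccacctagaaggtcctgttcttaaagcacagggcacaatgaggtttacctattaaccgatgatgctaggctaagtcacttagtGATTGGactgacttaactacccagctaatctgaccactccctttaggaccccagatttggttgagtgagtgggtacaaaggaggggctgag
H2-Oa: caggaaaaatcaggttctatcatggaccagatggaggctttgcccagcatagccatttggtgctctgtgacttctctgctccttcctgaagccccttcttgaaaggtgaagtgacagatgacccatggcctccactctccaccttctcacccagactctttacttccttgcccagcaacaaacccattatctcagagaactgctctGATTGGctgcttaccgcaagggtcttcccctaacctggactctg
GATTGG lay 49 bases before the start in H2-Aa, 60 in H2-Eb1, 91 in H2-DMb2 and 44 in H2-Oa. H2-Eb1 held a second copy on the opposite strand. The longer form CTGATTGG, which contains GATTGG, was in H2-Aa, H2-Eb1 and H2-Oa and not in H2-DMb2. Over all 32851 promoter windows of this length, searched on both strands, 14.6% held GATTGG and 3.83% held CTGATTGG. Of the 13 class II genes with an entry, 10 held GATTGG and 4 held CTGATTGG; Cd74, Ciita, H2-Ab1 and Rfxap had no entry. The motif is thus present in genes with very different ratios of IM3 to AM, and a match describes letters in a window only.

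Of 19 MHC class I presentation genes, 4 were higher and 5 lower, near or below the share of all tested genes, at a list median log2 fold change of -0.06. B2m, the light chain of class I molecules, had 2249, 2427 and 2068 CPM in IM3 and 2133, 2585 and 2227 CPM in AM (adjusted p = 0.861), and the populations overlapped. Nlrc5, the class I counterpart of CIITA, was the member with the widest difference: 38.5, 29.9 and 44.8 CPM in IM3 and 8.55, 14.2 and 12 CPM in AM (log2 fold change 1.71 ± 0.21, adjusted p = 3.59e-06). H2-Q4 and H2-M3, nonclassical class I genes, rose with log2 fold changes of 1.04 ± 0.27 and 0.88 ± 0.13. The class I genes are close paralogs, so reads shared among them were not counted. Calr, Erap1 and Psme2 (a chaperone, a peptide-trimming protease and a proteasome activator subunit) fell by 0.88, 0.83 and 0.73 on the log2 scale. Tap2 and Psmb8 were not called, with adjusted p of 0.779 and 0.807.

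Of 16 tested ligands and receptors that help or restrain T cells, 9 were higher and 4 lower, at a list median log2 fold change of 1.5. The activating receptor Cd40 had 42.9, 51.2 and 56.6 CPM in IM3 and 0.56, 0.632 and 1.1 CPM in AM (log2 fold change 6.03 ± 0.24, adjusted p = 7.87e-12). Tnfsf9 (4-1BB ligand) had 21.6, 18.7 and 13.9 CPM in IM3 and at most 0.368 CPM in AM. Cd86, a ligand of CD28 (chosen after its values were seen), had 291, 313 and 288 CPM in IM3 and 15.8, 22.7 and 13.3 CPM in AM, a 17.2-fold difference. All 3 separated IM3 from AM without overlap. Both ligands of the inhibitory receptor PD-1 fell: Cd274 (PD-L1) had 8.14, 11.4 and 9.95 CPM in IM3 and 153, 152 and 162 CPM in AM (log2 fold change -3.98 ± 0.19, adjusted p = 7.95e-11). Pdcd1lg2 (PD-L2) had 0.0677 to 0.733 CPM in IM3 and 5.82 to 10.1 CPM in AM (log2 fold change -4.5 ± 0.57). Cd200r1, an inhibitory receptor of myeloid cells, had 17 to 17.6 CPM in IM3 and 102 to 122 CPM in AM. Other restraining members were higher in IM3. Tnfrsf14, a ligand of the inhibitory receptor BTLA, had 2.05 to 2.85 CPM in IM3 and 1 read in AM, and Vsir (VISTA) had 933 to 960 CPM in IM3 and 254 to 278 CPM in AM. Cd276 (B7-H3) was higher as well. Havcr2 (TIM-3) was level, with 219, 230 and 215 CPM in IM3 and 216, 236 and 208 CPM in AM, and both were above IM1 and IM2, which averaged 68 and 100 CPM. Cd48 and Lgals9 were not called (adjusted p of 0.544 and 0.0855), and Tnfsf4 and Cd70 did not pass the filter.

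Dendritic cell markers were measured beside these results, since dendritic cells carry the same presentation genes. Of 19 tested markers 14 were higher and 3 lower in IM3, and their summed unscaled level was 2173 to 2480 CPM in IM3 and 1116 to 1172 CPM in AM. Against IM1 and IM2, 4 markers were higher in IM3 than in both and 4 lower than in both (4.36% and 5.81% of all tested genes). Flt3, the growth factor receptor that defines the lineage, had 24.6, 20.8 and 7.78 CPM in IM3 and 2 reads in AM (ratio 373, 95% interval 103 to 3085). Unscaled Flt3 levels were 7.99 to 24.77 CPM in IM3, 0.9607 to 3.971 CPM in IM1 and 3.45 to 9.897 CPM in IM2. Zbtb46 had 12.6, 8.58 and 13.4 CPM in IM3 and 1.89, 2.32 and 2.43 CPM in AM, and was higher in IM1 and IM2 than in IM3, at 28.8 to 49 CPM and 35.8 to 44 CPM. These 2 genes were chosen after their values were seen. Clec9a, which marks the cross-presenting subset, was not called, with 2.12 to 2.77 CPM in IM3 and 1.54 to 2.95 CPM in AM, and Xcr1 did not pass the filter. Mgl2, a galactose-binding lectin of dermal dendritic cells and macrophages, had 902, 794 and 954 CPM in IM3 and 3 reads in AM. Cadm1, an adhesion molecule, had 376, 403 and 431 CPM in IM3 and at most 0.56 CPM in AM, and averaged 49.3 CPM in IM1 and 93.2 CPM in IM2. Siglech had 22.7 to 37.5 CPM in IM3 and no count in AM, at least 407-fold higher, but 353 and 300 CPM on average in IM1 and IM2. Epcam, Ccl22 and Naaa fell; Epcam had 2 reads in IM3 and 72, 74.7 and 69.7 CPM in AM. The part of any dendritic cells within the gate in the class II and costimulatory results was not tested.

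**Figure D3:**
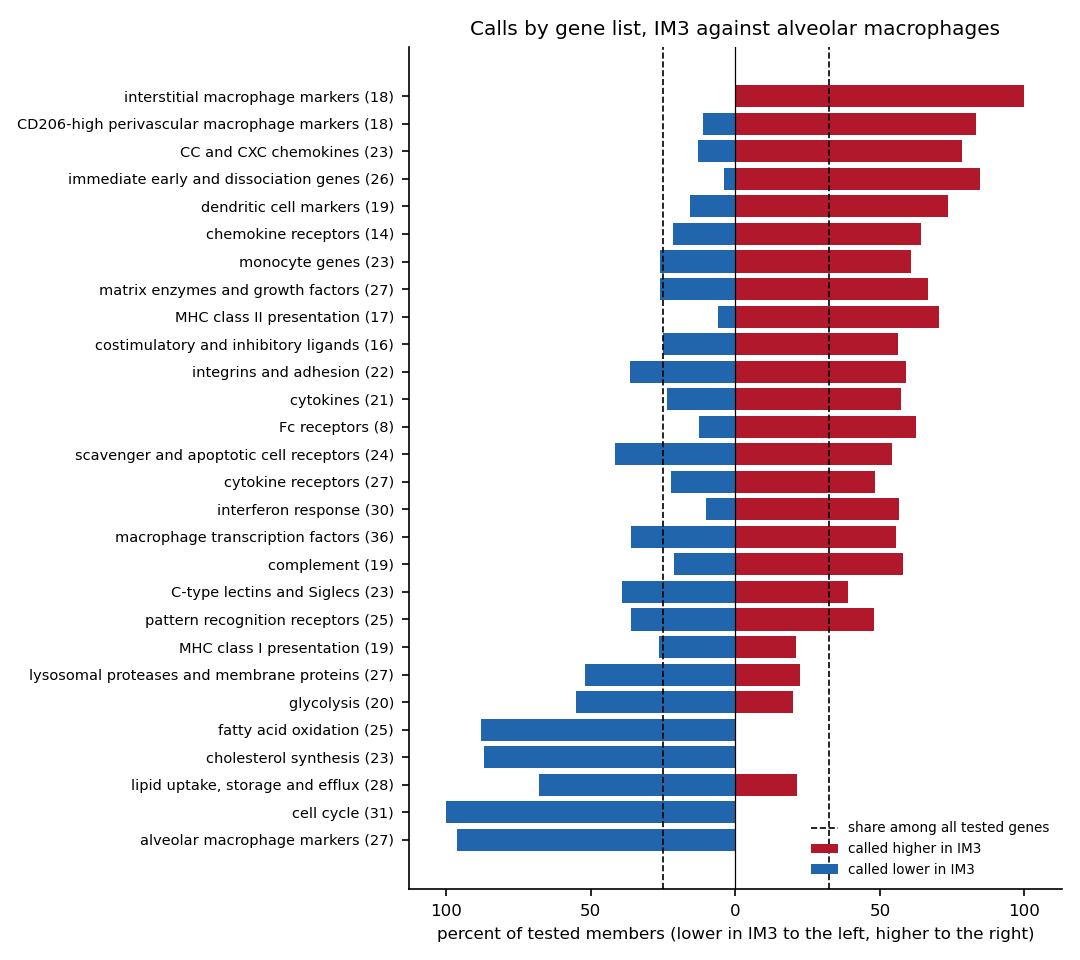
Percent of the tested members of each gene list that were called lower in IM3 (blue, to the left) or higher in IM3 (red, to the right), with the number tested in brackets and the share among all 14095 genes as dashed lines (32.4% higher, 25.0% lower). Interstitial markers, chemokines and immediate early genes lie at the higher end, and cell cycle, cholesterol synthesis and fatty acid oxidation genes at the lower.

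Macrophage transcription factors divided between the populations: of 36 tested, 20 were higher and 13 lower in IM3. Maf, a factor that restrains macrophage self-renewal, had 103, 110 and 104 CPM in IM3 and 3 reads in AM (ratio 1480, 95% interval 506 to 7178). Etv1, an ETS family factor, had 24.2, 28 and 24.7 CPM in IM3 and 2 reads in AM. IM1 and IM2 held more Maf and Etv1 than IM3 (means of 273 and 248 CPM for Maf, 121 and 82.2 CPM for Etv1). Runx3, chosen after its values were seen, went the other way among the interstitial populations, with 55.6, 66.3 and 47.6 CPM in IM3, 9.41 to 15.4 CPM in IM1, 19.3 to 27 CPM in IM2 and at most 0.368 CPM in AM. Lower in IM3 were Tfec, a factor of the MiT family (1.32 to 3.84 CPM in IM3 and 70.1 to 73.1 CPM in AM), and Bhlhe41, a repressor needed for alveolar macrophage renewal (3.84, 4.25 and 5.68 CPM in IM3 and 48.1, 56.2 and 70.5 CPM in AM). Tcf7l2, a partner of β-catenin, had 19.1, 18.6 and 15.9 CPM in IM3 and 246, 213 and 251 CPM in AM (log2 fold change -3.73 ± 0.14). Klf4, Bach1 and Cebpa were not called, with adjusted p of 0.998, 0.75 and 0.183. Gata6, the factor of peritoneal macrophages, did not pass the filter.

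Chemokine genes were mostly higher in IM3: 18 of 23 tested, with 3 lower and a median log2 fold change of 5.37. Cxcl13, which draws B cells, had 95.2, 82.5 and 77.2 CPM in IM3 and no count in AM, at least 1195-fold higher. Cxcl12, the ligand of CXCR4, had 9.93, 7.77 and 14.6 CPM in IM3 and no count in AM, at least 152-fold higher. Fibroblasts also make it and fibroblast markers were above AM in IM3, but the part of fibroblasts in its level was not tested. Ccl7, a monocyte attractant, had 34.2, 38.3 and 25 CPM in IM3 and 1 read in AM (ratio 1363, 95% interval 244 to 53874). All of these were higher in IM1 and IM2 than in IM3, with means of 131 and 231 CPM for Cxcl13 and 312 and 212 CPM for Ccl7. Cxcl14 and Ccl5 met the rule for being higher than AM in IM3 alone. Ccl5, with a mean of 5.32 CPM in IM3, left that set under at least 1 alternative setting or left-out library. Cxcl16, the transmembrane ligand of CXCR6 (chosen after its values were seen), had 1991, 2215 and 2119 CPM in IM3 and 9.25, 22.5 and 14.3 CPM in AM, a 137-fold difference, with 903 to 1102 CPM in IM1 and 1084 to 1277 CPM in IM2. In the lower direction, Ccl6 had 315, 350 and 244 CPM in IM3 and 2702, 2532 and 2394 CPM in AM (log2 fold change -3.07 ± 0.29). Cxcl3 and Ccl22, a neutrophil attractant and a ligand of CCR4, were low in both populations and fell by 1.8 and 1.69 on the log2 scale. Ccl17 and Cxcl9 were not called (adjusted p of 0.598 and 0.0529). Pf4 and Ppbp are also platelet genes, and the platelet marker sum was 104.7 to 121.3 CPM in IM3 and 0.4848 to 1.333 CPM in AM, most of it Pf4. Of the other platelet markers, Gp9 had 0.3994 to 0.9727 CPM in IM3 and at most 0.1269 CPM in AM, Treml1 had 0.2911 to 1.112 CPM in IM3 and at most 0.06534 CPM in AM, and Gp1bb was at or below 0.06657 CPM. Their part in these values was not tested.

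Of 14 tested chemokine receptors, 9 were higher and 3 lower. Cx3cr1, the receptor for fractalkine, had 700, 661 and 860 CPM in IM3 and 1.12, 2.95 and 1.25 CPM in AM (log2 fold change 8.69 ± 0.36, adjusted p = 1.57e-11). Cmklr1, the chemerin receptor, had 45.3, 58.4 and 42.7 CPM in IM3 and no count in AM, at least 681-fold higher. Cxcr3 had 11.3, 13.1 and 12 CPM in IM3 and 3 reads in AM. Ccr2, the receptor with which monocytes leave the bone marrow (chosen after its values were seen), had 1050, 1154 and 1261 CPM in IM3, 44.7, 85.5 and 82.8 CPM in IM1, 329, 584 and 554 CPM in IM2 and 11.8, 16.1 and 13.6 CPM in AM. Its IM3 level was 83.5-fold that of AM, and it was also called higher in IM3 than in IM1 (adjusted p = 3.37e-08) and IM2 (adjusted p = 0.002). The neutrophil-type receptors went the other way. Cxcr1 had no count in any interstitial library and 11.8, 8.84 and 13.1 CPM in AM, at least 163-fold higher in AM than in IM3. Cxcr2 had 1 read in IM3 and 7.78, 11.3 and 10.6 CPM in AM. The 10 neutrophil markers, Cxcr2 among them, had an unscaled sum of 59.89 to 69.5 CPM in IM3 and 131.9 to 165.7 CPM in AM. Mmp8 had 0.4169 to 1.601 CPM in IM3 and 62.38 to 82.55 CPM in AM, and S100a8 at most 0.1331 CPM in IM3 and 0.5881 to 1.731 CPM in AM. Ly6g and S100a9 were at 0 in all 6 libraries, and the part of neutrophils was not tested. Ccr1 had 35.7, 35.6 and 31.6 CPM in IM3 and 102, 90 and 89.6 CPM in AM (log2 fold change -1.45 ± 0.18). Ccr9 and Cxcr6 were under 1.4 CPM in every IM3 and AM library and were not called.

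Of 21 cytokine genes tested, 12 were higher and 5 lower. Il10, the main anti-inflammatory cytokine of macrophages, had 3.44, 4.62 and 1.01 CPM in IM3 and no count in AM, at least 41.9-fold higher, and averaged 20.2 CPM in IM1 and 22.2 CPM in IM2. Tnfsf8 (CD30 ligand) had 9, 7.7 and 9.41 CPM in IM3 and 1 read in AM. Il1b, the inflammatory IL-1β, was called higher in IM3 than in each other population (adjusted p of at most 1.36e-05): 398, 456 and 323 CPM in IM3, 13.5, 28.9 and 32.2 CPM in IM1, 38.2, 84.1 and 55.7 CPM in IM2 and 17.8, 23.7 and 24.5 CPM in AM. Tnfsf13b (BAFF), a B cell survival factor, showed the same order, with 193 to 212 CPM in IM3, 49.3 to 54 CPM in IM1, 67.9 to 81.6 CPM in IM2 and 18.8 to 28.1 CPM in AM. Il1b and Tnfsf13b were chosen after their values were seen. Il18, a cytokine of the IL-1 family, had 17.8, 22.2 and 19.8 CPM in IM3 and 254, 269 and 250 CPM in AM (log2 fold change -3.69 ± 0.19, adjusted p = 1.96e-10). Tgfb2 had 0.331 to 1.32 CPM in IM3 and 7.64 to 10.8 CPM in AM, and Lif had 1 read in IM3 and 1.33 to 2.67 CPM in AM. Tnfsf13, Il27 and Tnfsf10 were not called, all below 4 CPM in the 6 libraries. The cytokines Il12a, Il12b, Il23a, Csf2 and Ifnb1 did not pass the filter.

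Of 27 cytokine receptor genes, 13 were higher, 6 lower and 8 not called, against 32.4% higher and 25.0% lower among all tested genes. Il1r2, the decoy receptor of IL-1, had 17, 23.1 and 12.4 CPM in IM3 and no count in AM, at least 244-fold higher, and was at 0.322 and 1.99 CPM on average in IM1 and IM2. Il21r had 88.5, 83.3 and 90.7 CPM in IM3 and 3 reads in AM. Il1rl1 (ST2), the IL-33 receptor, had 45.7, 50.4 and 54 CPM in IM3 and 3 reads in AM (ratio 701, 95% interval 240 to 3403). Of the GM-CSF receptor, Csf2ra was not called and both β chains fell: Csf2rb2, the second of these, had 95.1, 119 and 104 CPM in IM3 and 192, 219 and 209 CPM in AM (log2 fold change -0.96 ± 0.18). Il17ra, the IL-17 receptor, had 28.9, 27.9 and 40 CPM in IM3 and 344, 376 and 366 CPM in AM (log2 fold change -3.49 ± 0.19). Tgfbr2 and Tnfrsf1a were not called, with adjusted p of 0.731 and 0.0896, whereas Tgfbr1, the partner of Tgfbr2, was higher than AM in IM3 alone.

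**Figure D4:**
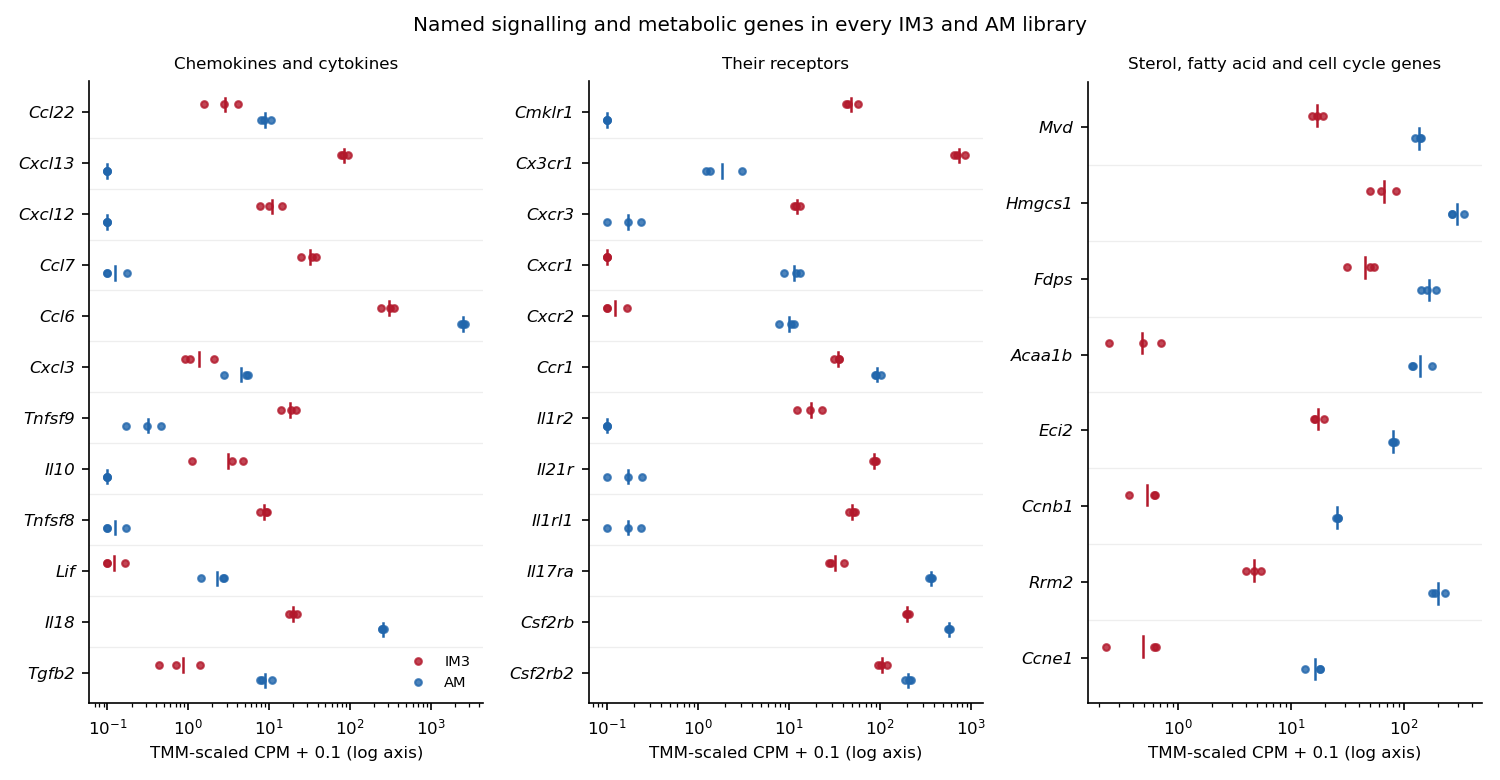
TMM-scaled CPM + 0.1 (horizontal log axis) in each of the 3 IM3 libraries (red) and 3 AM libraries (blue), with bars at the means, for the called chemokine, cytokine and receptor genes named by rule and for some sterol synthesis, fatty acid oxidation and cell cycle genes. Points at 0.1 are libraries without a count; IM3 lies above AM for Cx3cr1 and Cxcl13 and below it for Il18, Il17ra and each gene shown in the right panel.

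Pattern recognition receptors were called in both directions, 12 of 25 higher and 9 lower, at a list median log2 fold change of 0.05. Among all tested genes 32.4% were higher and 25.0% lower. Tlr12, a receptor for profilin of protozoa, had 48.5, 63.9 and 69.4 CPM in IM3 and no count in AM, at least 848-fold higher, and averaged 4.41 CPM in IM1 and 16.3 CPM in IM2. Tlr1, which pairs with Tlr2 on bacterial lipoprotein, had 94.3, 95.3 and 106 CPM in IM3 and 0.21, 0.772 and 0.81 CPM in AM (log2 fold change 7.35 ± 0.27). Tlr9, a DNA sensor, had 3.25 to 4.57 CPM in IM3 and at most 0.368 CPM in AM. The fungal β-glucan receptor Clec7a (Dectin-1) was lower, with 205, 298 and 307 CPM in IM3 and 917, 1135 and 1014 CPM in AM (log2 fold change -1.92 ± 0.22). Nod1 and Tlr8 fell by 1.71 and 1.16 on the log2 scale. Tlr7, Tlr13 and Ifih1, sensors of RNA, were not called, with log2 fold changes of 0.04, 0.05 and -0.14.

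C-type lectins and Siglecs split evenly, 9 of 23 higher and 9 lower, against 32.4% higher and 25.0% lower among all tested genes. Cd209a and Cd209f, lectins of the DC-SIGN family, had 2.23 to 7.02 CPM and 1.76 to 1.92 CPM in IM3 and no count in AM, at least 66.7-fold and 26.1-fold higher. Both were far higher in IM1 and IM2, where Cd209f averaged 294 and 268 CPM. Clec4e (Mincle), a receptor for mycobacterial glycolipid, had 3.38, 3.74 and 1.22 CPM in IM3 and 94, 152 and 146 CPM in AM (log2 fold change -5.56 ± 0.36). Cd22, better known as an inhibitory receptor of B cells, had 11.2, 9.75 and 11 CPM in IM3 and 177, 175 and 144 CPM in AM (log2 fold change -3.96 ± 0.19). Clec4b1 and Clec4a2 were not called.

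Of 8 tested Fc receptor genes, 5 were higher and 1 lower. The inhibitory receptor Fcgr2b had 1034, 1174 and 845 CPM in IM3 and 274, 253 and 266 CPM in AM (log2 fold change 1.94 ± 0.23, adjusted p = 2.32e-06). The activating receptor Fcgr4 had 77.4, 95.1 and 93.7 CPM in IM3 and 157, 154 and 152 CPM in AM (log2 fold change -0.8 ± 0.21), and averaged 15.7 CPM in IM1 and 32.1 CPM in IM2. Fcrl1, an Fc receptor-like gene of B cells, had 4.67 to 6.35 CPM in IM3 and 0.0736 to 0.631 CPM in AM. The shared signalling chain Fcer1g and the neonatal receptor Fcgrt were not called, with adjusted p of 0.819 and 0.661.

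Scavenger and apoptotic cell receptors were called in both directions, 13 of 24 higher and 10 lower. Stab1, an endocytic scavenger receptor, had 834, 711 and 864 CPM in IM3 and 0.701, 1.89 and 1.84 CPM in AM (log2 fold change 9.08 ± 0.32). Gas6, the bridging ligand of MerTK and Axl, had 146, 136 and 152 CPM in IM3 and at most 0.442 CPM in AM. Lyve1, a hyaluronan receptor of perivascular macrophages, had 6.95, 10.3 and 6.77 CPM in IM3 and 1 read in AM, but means of 653 and 369 CPM in IM1 and IM2. Marco, the alveolar scavenger receptor for particles and bacteria, had 0.397, 0.88 and 1.89 CPM in IM3 and 391, 446 and 411 CPM in AM (log2 fold change -8.61 ± 0.39, adjusted p = 3.34e-11). Olr1, a receptor for oxidised lipoprotein, had 2.71 to 3.57 CPM in IM3 and 369 to 455 CPM in AM. Cd300lf had 33.5 to 55.5 CPM in IM3 and 479 to 509 CPM in AM. Lrp1 was not called (adjusted p = 0.28).

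Complement genes beyond C1q were mixed. In all, 11 of 19 tested were higher and 4 lower, at a list median log2 fold change of 0.64. C3, the central component, had 62.2, 75.9 and 111 CPM in IM3 and 234, 329 and 297 CPM in AM (log2 fold change -1.79 ± 0.28). C1ra, a protease that acts with C1q, had 8.74, 10.6 and 10.2 CPM in IM3 and 47.7, 49.9 and 46.5 CPM in AM (log2 fold change -2.28 ± 0.17). Cfp, properdin, had 163, 142 and 134 CPM in IM3 and 353, 317 and 303 CPM in AM, but means of 1192 and 1100 CPM in IM1 and IM2. C5ar2, Cd59a and Cr1l were not called.

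Integrins and adhesion molecules were higher in IM3 for 13 of 22 tested genes and lower for 8. Itga8 had 18.7, 23.3 and 32.7 CPM in IM3 and no count in AM, at least 350-fold higher, in addition to Itga9 above. Fibroblast markers were above AM in IM3, and the part of fibroblasts in the level of Itga8 was not tested. Pecam1, an adhesion molecule that endothelium also carries, had 24.7, 25.1 and 19.1 CPM in IM3 and 2 reads in AM. Cdh1 (E-cadherin) was lower, with 0.587 to 0.794 CPM in IM3 and 104, 85 and 85.1 CPM in AM (log2 fold change -7.03 ± 0.47). Itgal, the α chain of LFA-1, had 65.5, 53.7 and 60.9 CPM in IM3 and 521, 487 and 481 CPM in AM (log2 fold change -3.05 ± 0.26), against means of 12.9 and 16.9 CPM in IM1 and IM2. Itga1 fell by 2.51 on the log2 scale, and Itgae, the α chain of CD103, was under 1.5 CPM in every library of both populations. Itga5 was not called (adjusted p = 0.822).

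Matrix enzymes and growth factors were higher in IM3 in 18 of 27 tested genes and lower in 7. Mmp13, a collagenase, had 131, 210 and 245 CPM in IM3 and at most 0.147 CPM in AM (log2 fold change 10.88 ± 0.65), with means of 5.86 CPM in IM1 and 26.3 CPM in IM2. Mmp12, the macrophage elastase (chosen after its values were seen), had 2267, 3279 and 3554 CPM in IM3, 171, 197 and 251 CPM in IM1, 337, 608 and 666 CPM in IM2 and 20.8, 22.7 and 27.1 CPM in AM, and was 129-fold higher in IM3 than in AM. Mmp9, a gelatinase, went the opposite way among the interstitial populations, with 48.3, 45.4 and 56.4 CPM in IM3 and means of 1230 and 1631 CPM in IM1 and IM2, and had no count in AM, at least 704-fold lower than in IM3. Timp3, an inhibitor of these enzymes, had 10.3, 16.1 and 24.8 CPM in IM3 and no count in AM. The fibroblast markers had an unscaled sum of 1073 to 1460 CPM in IM3 and 423.8 to 524.6 CPM in AM, most of it Gsn. The part of fibroblasts was not tested. Mmp8, a neutrophil-type collagenase, had 0.463, 1.61 and 0.406 CPM in IM3 and 73.6, 69 and 87.8 CPM in AM (log2 fold change -6.55 ± 0.35). Fn1, fibronectin, had 50, 38.8 and 38.6 CPM in IM3 and 1005, 987 and 1024 CPM in AM (log2 fold change -4.57 ± 0.4). Ereg, an EGF receptor ligand, had no count in IM3 and was at least 30-fold higher in AM. Plau and Vegfb were not called.

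Lipid genes were mostly lower in IM3: 19 of 28 fell and 6 rose, at a list median log2 fold change of -1.81. The fatty acid binding proteins Fabp4 and Fabp1 had at most 0.662 and 1.06 CPM in IM3, and 154 to 213 CPM and 264 to 335 CPM in AM. Lpl, lipoprotein lipase, had 627, 758 and 760 CPM in IM3 and 3789, 4142 and 3986 CPM in AM (log2 fold change -2.47 ± 0.16). Abcg1, the cholesterol exporter that keeps alveolar macrophages free of surfactant overload, had 105, 104 and 95.9 CPM in IM3 and 998, 766 and 827 CPM in AM (log2 fold change -3.09 ± 0.2). Lpl and Abcg1 were chosen after their values were seen. Apoe, the lipoprotein of cholesterol efflux, was the largest exception by fold, with 5719, 4078 and 4066 CPM in IM3 and 11.1, 6.04 and 5.08 CPM in AM (log2 fold change 9.28 ± 0.42, adjusted p = 3.44e-11). Apoc2 and the hormone-sensitive lipase Lipe rose by log2 fold changes of 3.24 ± 0.5 and 2.01 ± 0.2. Slc27a4, Acsl1 and Abca3 were not called.

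Sterol synthesis genes were lower in IM3: 20 of 23 fell, none rose, and the median log2 fold change was -1.28. Mvd, which makes isopentenyl diphosphate, had 19.1, 15.1 and 16.8 CPM in IM3 and 124, 140 and 137 CPM in AM (log2 fold change -2.97 ± 0.18, adjusted p = 8.84e-10). Hmgcs1, an early enzyme of the pathway, had 50.2, 62.6 and 84.2 CPM in IM3 and 266, 338 and 265 CPM in AM (log2 fold change -2.14 ± 0.21). Fdps, which makes farnesyl diphosphate, had 31.4, 54.3 and 49.9 CPM in IM3 and 141, 192 and 160 CPM in AM (log2 fold change -1.86 ± 0.22). The 3 enzymes did not overlap between the populations. Srebf2, the regulator of the pathway, was not called, with 156, 131 and 187 CPM in IM3 and 130, 133 and 134 CPM in AM (adjusted p = 0.191). Ebp was not called either. In IM1 and in IM2, 21 of these 23 genes were lower than in AM.

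Fatty acid oxidation behaved alike, with 22 of 25 tested genes lower and none higher, and a median log2 fold change of -1.14. Acaa1b, a peroxisomal thiolase, had 0.397, 0.147 and 0.609 CPM in IM3 and 176, 119 and 117 CPM in AM (log2 fold change -8.43 ± 0.32, adjusted p = 5.25e-12). Eci2 fell by 2.22 on the log2 scale. Acadm, a mitochondrial dehydrogenase, was level at 111 to 124 CPM in IM3 and 116 to 122 CPM in AM, and Decr1 and Acot2 were not called. Of 20 glycolysis genes, 11 fell and 4 rose (median -0.44). Aldoc, an aldolase isoform, had 12.3, 10.9 and 14.3 CPM in IM3 and 242, 235 and 256 CPM in AM (log2 fold change -4.29 ± 0.25). Aldoa and Pkm fell by 1.9 and 1.47 on the log2 scale. Ldhb, Slc2a3 and Pfkm, a lactate dehydrogenase chain, a glucose transporter and a phosphofructokinase isoform, rose; Slc2a3 had 14.4, 12.5 and 13.5 CPM in IM3 and at most 0.911 CPM in AM. Hk2, Tpi1 and Slc2a1 were not called.

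Of the lysosomal genes, 14 of 27 tested fell, 6 rose and 7 were not called. Ctsd, an aspartic protease, had 873, 949 and 870 CPM in IM3 and 22730, 25079 and 23298 CPM in AM (log2 fold change -4.72 ± 0.13, adjusted p = 2.76e-13). Ctsk, a collagen-cleaving cathepsin, had 1.46, 1.54 and 1.22 CPM in IM3 and 787, 1052 and 821 CPM in AM (log2 fold change -9.3 ± 0.38). Atp6v0d2, a subunit of the proton pump, had 3.18 to 5.28 CPM in IM3 and 1879 to 2043 CPM in AM. Ctse, another aspartic protease, was the reverse, with 7.81, 5.28 and 4.06 CPM in IM3 and no count in AM, at least 80.6-fold higher. Ctsb, Lamp2 and Npc2 were not called, Ctsb standing at 5656 to 6465 CPM in IM3 and 4867 to 6132 CPM in AM.

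All 31 cell cycle genes were lower in IM3 than in AM, at a list median log2 fold change of -3.41, and all 31 were also lower than AM in IM1 and in IM2. Rrm2, the ribonucleotide reductase subunit of S phase, had 4.57, 5.35 and 3.92 CPM in IM3 and 188, 229 and 177 CPM in AM (log2 fold change -5.42 ± 0.2, adjusted p = 4.49e-12). Ccnb1, the mitotic cyclin, had 0.53, 0.513 and 0.271 CPM in IM3 and 24.7, 25.8 and 25.7 CPM in AM (log2 fold change -5.83 ± 0.45). Ccne1, the cyclin of the G1/S transition, had 0.132 to 0.541 CPM in IM3 and 13.3 to 17.9 CPM in AM. No cell cycle gene overlapped between the populations.

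Immediate early and dissociation-related genes were higher in IM3 in 22 of 26 cases, with 1 lower and a median log2 fold change of 4.26 (3.98 with genes without counts in AM set at their lower bound). Egr1 had 1854, 1415 and 1010 CPM in IM3 and 1.68, 4.91 and 4.12 CPM in AM (log2 fold change 8.64 ± 0.35, adjusted p = 1.22e-11). Nfkbiz, an inducible cofactor of NF-κB, had 524, 367 and 246 CPM in IM3 and 2.31, 3.23 and 4.71 CPM in AM (log2 fold change 6.79 ± 0.38). Fos, chosen after its values were seen, had 4102, 3516 and 3018 CPM in IM3 and 107, 78.1 and 75.8 CPM in AM, a 40.8-fold difference. The genes were high in all interstitial populations: 20 of 26 were higher than AM in IM1 and 21 in IM2. Egr2 was the lower gene, with 43.8, 36.2 and 22.1 CPM in IM3 and 63.3, 40 and 51.8 CPM in AM (adjusted p = 0.0307, a call lost without any 1 of 4 libraries). Klf4, Fosl2 and Hsp90aa1 were not called. The heat shock genes Hspa1a and Hspa1b, near-identical copies whose shared reads were not counted, met the rule for being higher than AM in IM3 alone. They averaged 104 and 177 CPM in IM3 against 38.7 and 80.8 CPM in AM. Both left that set under at least 1 alternative setting or left-out library. Sorting was done separately for AM, and the part of tissue handling in these genes cannot be told apart from the population.

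Interferon response genes were higher in IM3 in 17 of 30 cases and lower in 3, with 10 not called and a median log2 fold change of 0.74. Ifitm3, which blocks virus entry, had 40.2, 36.7 and 33.5 CPM in IM3 and 0.631, 0.842 and 1.33 CPM in AM (log2 fold change 5.3 ± 0.44), against means of 175 and 131 CPM in IM1 and IM2. Oas2, a sensor of double-stranded RNA, had 53.3, 49.5 and 38.8 CPM in IM3 and 0.981, 1.75 and 2.5 CPM in AM (log2 fold change 4.76 ± 0.3). Ifi44 had 0.88 to 1.03 CPM in IM3 and no count in AM. Gbp2 and Zbp1 were lower in IM3 instead. Ifit1, Oas3 and Ifih1 were not called.

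Monocyte genes were higher in IM3 in 14 of 23 tested cases and lower in 6. Beside Ccr2, Thbs1 (thrombospondin 1) had 66.6, 68.3 and 63.6 CPM in IM3 and 3 reads in AM (ratio 928, 95% interval 317 to 4503). Plac8 had 3.24, 1.76 and 0.744 CPM in IM3 and no count in AM, at least 27.1-fold higher. Ly6c2, the marker of classical monocytes (chosen after its values were seen), was low: 2.25, 1.25 and 0.947 CPM in IM3 and 0, 0 and 0.589 CPM in AM (adjusted p = 0.0181). S100a8 and S100a9 did not pass the filter. Treml4, a gene of nonclassical monocytes, had 7.41, 8.65 and 11 CPM in IM3 and 94.4, 138 and 121 CPM in AM (log2 fold change -3.71 ± 0.28). Vcan, Klf4 and Emilin2 were not called, Emilin2 lying at 119 to 136 CPM in IM3 and 116 to 131 CPM in AM.

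Most markers of CD206-high perivascular macrophages placed IM3 between AM and the other interstitial populations. Of 18, 15 were higher in IM3 than in AM and 2 lower, at a list median log2 fold change of 6.45 (5.55 with genes without counts in AM at their bound). All 18 were lower in IM3 than in both IM1 and IM2, against 5.81% of all tested genes; CD206 itself was used to gate these populations, and the list was chosen with results of these data known. F13a1, coagulation factor XIII A, had 76.2, 85.3 and 96.2 CPM in IM3 and 0.0736 to 0.281 CPM in AM (log2 fold change 8.94 ± 0.3), against means of 2627 CPM in IM1 and 2252 CPM in IM2. Colec12 fell below AM, with 34.5, 37.6 and 49.1 CPM in IM3 and 129, 186 and 151 CPM in AM. Vsig4, the complement receptor CRIg, was not called (adjusted p = 0.0808), with 0.463 to 1.25 CPM in IM3 and 0.0736 to 0.421 CPM in AM.

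The libraries of IM1 and IM2 were then used to find genes with which IM3 alone departs from AM. A gene counted as higher in IM3 alone when IM3 was called higher than AM, IM1 and IM2, by at least 2-fold each, and neither IM1 nor IM2 was called higher than AM. This held for 32 genes (0.227% of those tested), and the reverse rule for lower genes held for 30 (0.213%). The values below chose these genes, so they are given as a description. At the edge of the rule, March3 was just inside the higher set with a smallest log2 margin of 1.01 and Syne1 just outside with 0.98; in the lower set Blvrb was inside with 1.02 and Gprc5c outside with 0.98. Left-out libraries and the alternative settings together kept 16 of the 32 and 18 of the 30 in place throughout.

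The genes higher in IM3 alone included secreted proteases, receptors and regulators. Htra3, a secreted serine protease that restrains TGF-β family signals, had 87.2, 96.7 and 76.6 CPM in IM3, 7.08, 10.4 and 9.41 CPM in IM1, 11.4, 24.4 and 19.6 CPM in IM2 and 12.3, 14.5 and 11.6 CPM in AM (log2 fold change over AM 2.76 ± 0.23). Tgfbr1, the type I receptor of TGF-β, had 843, 782 and 1011 CPM in IM3, 183, 279 and 195 CPM in IM1, 273, 420 and 317 CPM in IM2 and 326, 322 and 316 CPM in AM (1.45 ± 0.18). For both genes IM1, IM2 and AM lay close together and IM3 stood alone. Cxcl14, an epithelial and macrophage chemokine, had 40, 44.1 and 47.8 CPM in IM3, 7.86, 18 and 12.5 CPM in IM1, 11.5, 15.5 and 16.9 CPM in IM2 and 13.4, 11.8 and 12.7 CPM in AM (1.8 ± 0.23). Prdm1, the repressor Blimp-1, had 51.2, 51.5 and 49.7 CPM in IM3, 8.3, 13.7 and 13.7 CPM in IM1, 12.9, 21 and 24.3 CPM in IM2 and 15.3, 15.8 and 17.3 CPM in AM (1.66 ± 0.22). Tle1, a Groucho-type corepressor, had 164, 178 and 214 CPM in IM3, 21.9 to 48 CPM in IM1, 48.5 to 71.8 CPM in IM2 and 44.8 to 51.8 CPM in AM. Gpr35, a G protein-coupled receptor for tryptophan metabolites, had 61.2 to 76.4 CPM in IM3, 10.1 to 14.1 CPM in IM1, 18.3 to 26.4 CPM in IM2 and 17.6 to 24 CPM in AM. Prss30, a membrane-anchored serine protease, had 67.6 to 77.7 CPM in IM3, 1.86 to 4.28 CPM in IM1, 10.5 to 15.6 CPM in IM2 and 13.7 to 20.1 CPM in AM. Ipcef1 (a partner of cytohesins), Xylt1 (which starts glycosaminoglycan chains), Col15a1 (a basement membrane collagen), Zfp599 and Abhd15 completed the 12 with the widest margins, at log2 fold changes over AM of 2.3, 1.78, 1.37, 1.33 and 1.55. Of these 12, Htra3, Ipcef1, Prdm1 and Tle1 left the set under at least 1 alternative setting or left-out library. Col15a1 is also a fibroblast and vessel gene, and had 12.4 to 15.7 CPM in IM3 and 5.19 to 5.74 CPM in AM. The other named members were Ocstamp, Apol7c, Adamdec1, Olfr111, Ccl5, Il18rap, Mmp25, Phlda1, H2-DMb2, Traf3ip3, Zc3h12d, Adora3, F9, Hspa1a, Hspa1b, Alcam, Cd52, Smim3 and March3, with IM3 means between 1.96 and 177 CPM.

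The genes lower in IM3 alone held several endocytic receptors. Cd209b (SIGN-R1), a lectin for bacterial polysaccharide, had 1.65, 2.93 and 1.83 CPM in IM3, 111, 54.5 and 72.5 CPM in IM1, 95.3, 67.5 and 92.1 CPM in IM2 and 6.24, 12.5 and 11.9 CPM in AM (log2 fold change over AM -2.26 ± 0.34). Colec12, a scavenger receptor with a collagen-like stalk, had 34.5, 37.6 and 49.1 CPM in IM3, 364, 374 and 426 CPM in IM1, 260, 207 and 277 CPM in IM2 and 129, 186 and 151 CPM in AM. Tfrc, the transferrin receptor, had 4.37, 4.55 and 8.19 CPM in IM3, 32.3, 25.3 and 33.8 CPM in IM1, 28.4, 38.6 and 36.6 CPM in IM2 and 13.5, 11.4 and 16 CPM in AM (-1.26 ± 0.24). In these 3 receptors the other interstitial populations lay above AM while IM3 lay below it. In other members IM1, IM2 and AM lay closer together. Unc5a, a netrin receptor, had 0.927, 1.17 and 1.83 CPM in IM3, 12.1, 19 and 13.7 CPM in IM1, 23.4, 17.2 and 26.2 CPM in IM2 and 18.8, 18 and 16.1 CPM in AM (-3.74 ± 0.28). Maoa, monoamine oxidase A, had 16, 16 and 17.7 CPM in IM3, 68.2 to 96.2 CPM in IM1, 53.1 to 75.8 CPM in IM2 and 46.9 to 56.8 CPM in AM. Ccr1 averaged 34.3 CPM in IM3, 93.2 CPM in IM1, 85.7 CPM in IM2 and 93.8 CPM in AM. Il18bp, the soluble inhibitor of IL-18, had 2.12 to 3.52 CPM in IM3, 9.22 to 16.7 CPM in IM1, 7.79 to 14 CPM in IM2 and 8.48 to 11.5 CPM in AM. The cytokine that it binds, Il18, was itself lower than AM in all interstitial populations. Akr1b8 (an aldo-keto reductase), Susd1, Mcoln2 (an endolysosomal channel), Erc1 and Mpi (mannose phosphate isomerase) fell by 2.6, 1.79, 1.61, 1.95 and 1.23 against AM on the log2 scale, and Erc1 left the set under at least 1 alternative setting or left-out library. The remaining named members were Padi3, Muc1, Pm20d1, Dock3, Paqr5, C1rb, Ddah1, Epb41l5, Lix1, Car13, Nrp2, Cfp, Slc38a6, Slc40a1, Oas1c and Blvrb. Slc40a1, the iron exporter ferroportin, averaged 48.8 CPM in IM3, 169 CPM in IM1, 105 CPM in IM2 and 103 CPM in AM. Slc40a1 also left the set under at least 1 alternative setting or left-out library.

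A gene counted as shared by IM3 and AM when each was called at least 2-fold higher than IM1 and than IM2 while IM3 and AM differed by less than 2-fold; this held for 62 genes (0.440%). The reverse, low in IM3 and AM and high in IM1 and IM2, held for 66 genes (0.468%). In the high set 37 genes were not called between IM3 and AM, 3 were called higher and 22 lower in IM3; in the low set these numbers were 47, 13 and 6. Just inside the high set stood Vipr1 with a smallest log2 margin of 1.01 and just outside Stk10 with 0.99, and in the low set Ang with 1.0 and Snx2 with 0.98. Of the 62 and 66 genes, 42 and 30 stayed under every left-out library and alternative setting.

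**Figure D5:**
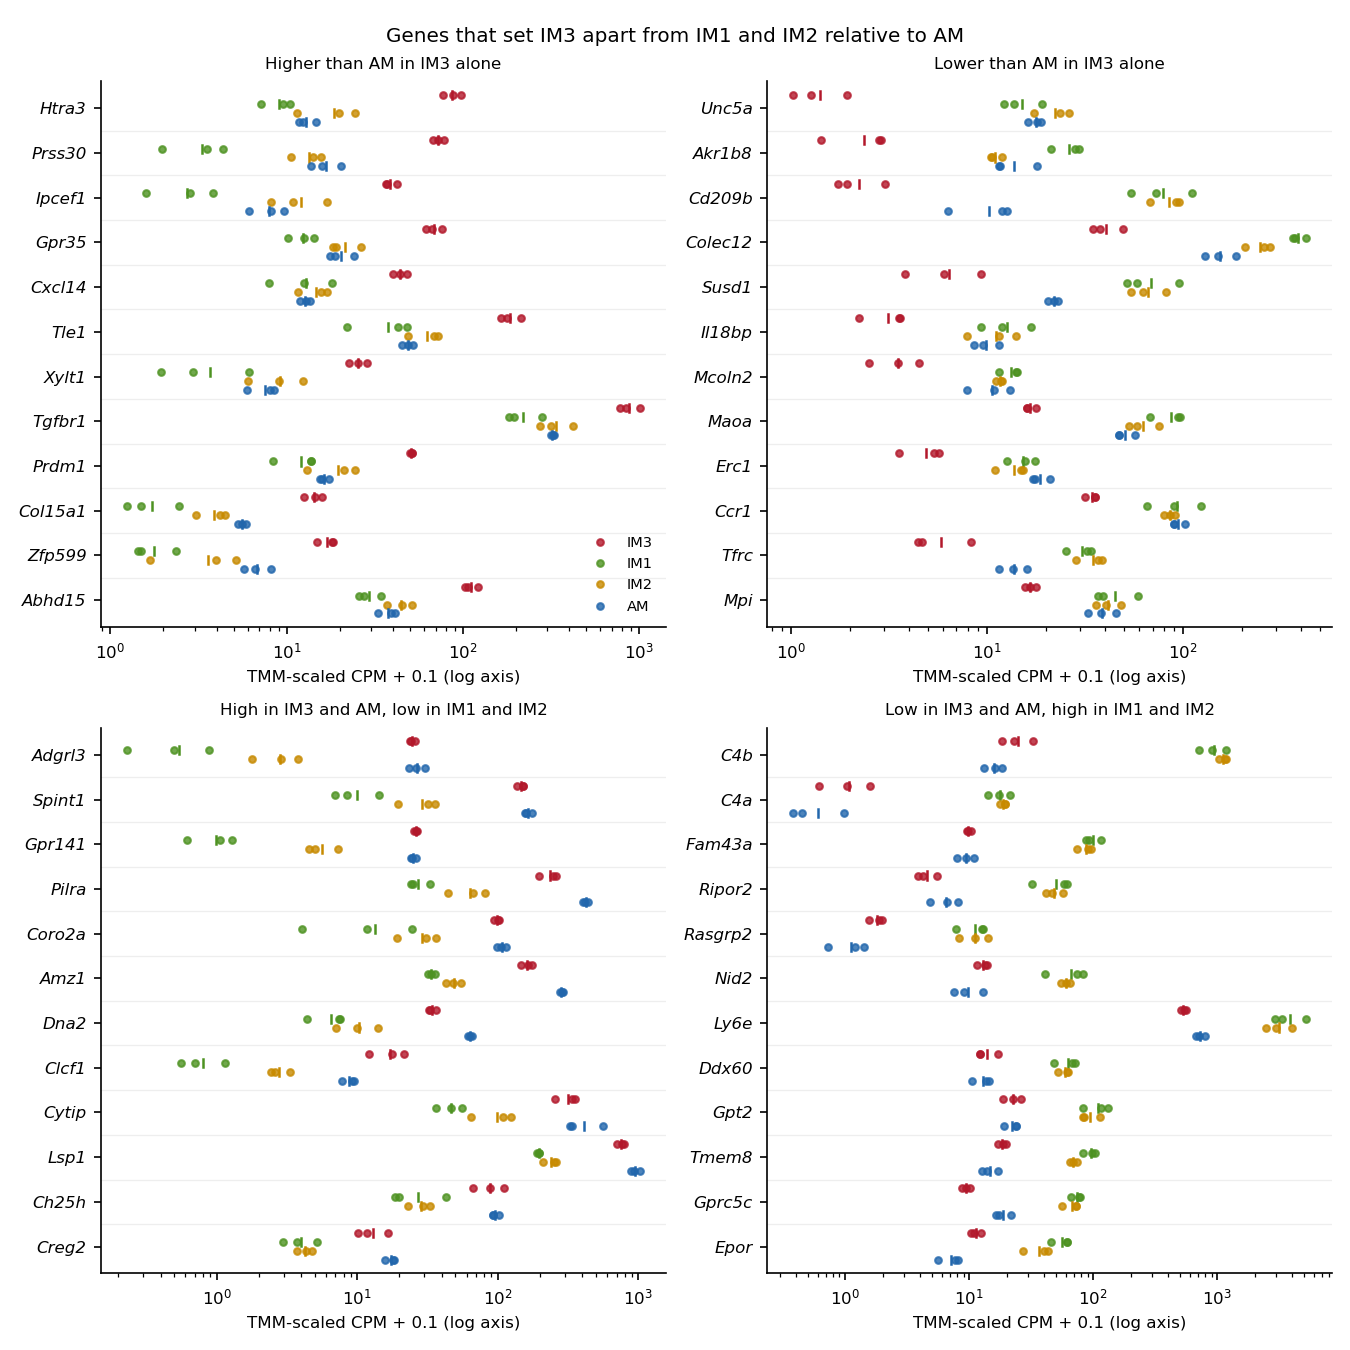
TMM-scaled CPM + 0.1 (horizontal log axis) in each library of IM3, IM1, IM2 and AM, with bars at the means, for the 12 genes of at least 10 CPM with the widest margins in each of the 4 sets. In the upper panels IM3 stands apart from the other 3 populations, and in the lower panels IM3 and AM lie together and apart from IM1 and IM2; these values chose the genes.

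Among the genes that IM3 and AM share at a high level, Adgrl3, the adhesion receptor latrophilin 3, had 23.8, 25.6 and 24.2 CPM in IM3, 0.786, 0.398 and 0.13 CPM in IM1, 2.79, 3.72 and 1.7 CPM in IM2 and 26, 23.2 and 30.1 CPM in AM. Gpr141, an orphan receptor, had 26.6, 25.9 and 25.4 CPM in IM3, 0.961, 1.19 and 0.519 CPM in IM1, 4.44, 7.22 and 4.92 CPM in IM2 and 25.9, 24.1 and 24.5 CPM in AM. Spint1, an inhibitor of membrane serine proteases, had 136, 150 and 151 CPM in IM3, 6.82, 8.42 and 14.3 CPM in IM1, 19.5, 31.7 and 35.9 CPM in IM2 and 174, 159 and 155 CPM in AM. IM2 lay between IM1 and the shared level in all 3. Pilra, a paired inhibitory receptor, had 196, 247 and 261 CPM in IM3, 23.9 to 32.8 CPM in IM1, 44.2 to 81.1 CPM in IM2 and 405 to 440 CPM in AM, and was one of the members lower in IM3 than in AM. Lsp1, an actin-binding phosphoprotein of leukocytes, had 710, 766 and 795 CPM in IM3, 190 to 198 CPM in IM1, 210 to 260 CPM in IM2 and 888 to 1030 CPM in AM. Coro2a, a coronin that binds actin, had 94.5, 102 and 101 CPM in IM3, 3.93 to 24.4 CPM in IM1, 19 to 36.3 CPM in IM2 and 99.3 to 115 CPM in AM. Lsp1 was 1 of the members called lower in IM3 than in AM, a call lost without a filter on low counts and without some libraries, and Coro2a was not called. Ch25h, which makes 25-hydroxycholesterol, had 111, 87.3 and 66.3 CPM in IM3, 18.4 to 42.8 CPM in IM1, 23 to 32.7 CPM in IM2 and 92.9 to 102 CPM in AM. Clcf1, a cytokine of the IL-6 family, had 21.6, 17.6 and 12.1 CPM in IM3, 0.454 to 1.05 CPM in IM1, 2.33 to 3.23 CPM in IM2 and 7.73 to 9.33 CPM in AM, and was one of the 3 members higher in IM3. Cytip, Amz1, Dna2 and Creg2 were the other members with the widest margins among those of at least 10 CPM, and of these 12 only Clcf1 left the set under an alternative setting or left-out library. Fcgr4, Havcr2 and H2-Oa of the lists above belonged here too, as did the survival genes Bcl2a1a and Bcl2a1d, close paralogs that averaged 55.5 and 51.4 CPM in IM3, 13.5 and 13.8 CPM in IM1, 20.3 and 18 CPM in IM2 and 66.5 and 65.1 CPM in AM.

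The genes low in IM3 and AM included complement C4, adhesion and receptor genes of the CD206-high populations. C4b had 18.4, 22.8 and 32.7 CPM in IM3, 708, 1183 and 915 CPM in IM1, 1172, 1025 and 1161 CPM in IM2 and 13, 16.1 and 18.3 CPM in AM. Its near-identical copy C4a showed the same order, with 0.513 to 1.49 CPM in IM3, 14.2 to 21.2 CPM in IM1, 17.6 to 19.4 CPM in IM2 and 0.28 to 0.884 CPM in AM, and reads shared by the copies were not counted. Fam43a had 9.6, 9.46 and 10.2 CPM in IM3, 87.4 to 116 CPM in IM1, 74.6 to 96.7 CPM in IM2 and 7.88 to 10.9 CPM in AM. For C4b and Fam43a the difference between IM3 and AM was small beside the distance of both from IM1 and IM2. Ly6e, a GPI-anchored protein that limits coronavirus entry, had 535, 558 and 510 CPM in IM3, 2903 to 5231 CPM in IM1, 2488 to 3985 CPM in IM2 and 672 to 794 CPM in AM. Nid2, a basement membrane linker, had 11.5 to 13.9 CPM in IM3, 40.6 to 82.9 CPM in IM1, 55.4 to 64.5 CPM in IM2 and 7.43 to 12.8 CPM in AM. Gpt2, a mitochondrial aminotransferase, had 18.8 to 25.9 CPM in IM3, 83.4 to 131 CPM in IM1, 81.9 to 114 CPM in IM2 and 19.1 to 23.9 CPM in AM. Ripor2, Rasgrp2, Ddx60, Tmem8, Gprc5c and Epor were the other members with the widest margins among those of at least 10 CPM, and C4a and Gprc5c left the set under at least 1 alternative setting or left-out library. Epor, the erythropoietin receptor, averaged 11.2 CPM in IM3, 56.1 CPM in IM1, 36.7 CPM in IM2 and 7.02 CPM in AM. Mrc1 was in this set as well, so the transcript of the protein that divides the interstitial gates was near its AM level in IM3. Lbx1, Egfros and Kcnc2 had no count in any IM3 or AM library and means of 0.629 to 2.78 CPM in IM1 and IM2. Of these, Kcnc2 left the set under at least 1 alternative setting or left-out library.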

How the data were processed

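The series holds 38 sequencing runs of 12 libraries (RNA from sorted lung macrophages, SMART-Seq v4 amplification, Ion Proton), 3 each of IM3, IM1, IM2 and AM. The deposited values are raw gene counts that the authors made with featureCounts v1.5.0-p1, unstranded, on mm10 with Ensembl 78, per the file headers; STAR 2.5.1b is named in the submitters' processing notes. Reads that map to several places were not counted, so close paralogs are uncertain, and reads of a gene and an overlapping antisense gene cannot be told apart. Symbols and coordinates were matched from GENCODE on GRCm38 for 42462 of 43346 identifiers (98%).

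Counts were scaled by TMM and tested with edgeR 4.0.16 (quasi-likelihood, robust, R 4.3.3) in 1 fit of all 12 libraries with population as the only term, after a filter with a minimum count of 10, which kept 14095 genes; calls have a Benjamini-Hochberg adjusted p under 0.05. The labels do not say that replicates are separate animals, so the p-values reflect only variation among the 3 libraries of each population, which may be technical. All 12 libraries share 1 estimate of the spread per gene, so IM1 and IM2 also enter the p-values of IM3 against AM. That comparison had 8094 calls in the main fit, 8980 without IM1 replicate A and 8670 in the 6 IM3 and AM libraries alone. Assigned reads ranged from 11818981 to 15758326 per library. Intervals and bounds cover counting error only: a fold against a population with no count is taken against 3 counts over its libraries, and ratios with 1 to 3 counts have 95% exact binomial intervals. Alternatives were other scalings, no filter, DESeq2 1.42.0, limma 3.58.1 (voom), a replicate block, the 6 libraries alone and each library left out.

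The members, gene lists and rules were chosen with earlier results of these data known. Named were the 12 called genes with the largest log2 fold change each way with at least 50 CPM in the higher population and no overlap, 3 genes each way and up to 3 uncalled genes per list, 12 genes per set with at least 10 CPM, and all gate genes. Other genes are said to be chosen after their values were seen, or are listed as set members. A few genes are not reported here individually; they remain in the fits and counts.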

Additional observations from a re-analysis of the deposited data

Results flagged for a closer look

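For 10 of the named genes IM3 and the other interstitial populations were called on opposite sides of AM, and the difference between IM3 and each of IM1 and IM2 was itself tested in the same fit; over all tested genes this happened for 39. Log2 fold changes are over AM, and the adjusted p is the larger of the tests of IM3 against IM1 and against IM2 (edgeR). Genes below AM in IM3 and above it in the others were endocytic receptors, complement and surface proteins. Mrc1 stood at -0.42 in IM3, 1.1 in IM1 and 1.14 in IM2 (adjusted p = 1.08e-06). Colec12 stood at -1.94 in IM3, 1.32 in IM1 and 0.68 in IM2 (adjusted p = 1.40e-07). Cd209b stood at -2.26, 2.96 and 3.06 in the same order (adjusted p = 9.62e-08), and the transferrin receptor Tfrc at -1.26, 1.16 and 1.34 (adjusted p = 2.30e-06). Properdin, Cfp, stood at -1.15, 1.88 and 1.76 (adjusted p = 1.40e-07), Susd1 at -1.79, 1.65 and 1.6 (adjusted p = 1.38e-06), and the orphan receptor Gprc5c at -0.98, 1.99 and 1.86 (adjusted p = 3.01e-08). Above AM in IM3 and below it in the others were Spn (CD43), at 0.47, -1.36 and -0.79 (adjusted p = 5.41e-05), Zfp599, at 1.33, -1.99 and -0.93 (adjusted p = 1.65e-04), and the cytokine Clcf1, at 0.98, -3.67 and -1.69 (adjusted p = 6.17e-06). CD206, encoded by Mrc1, and CD43 were part of the gates. All of these genes except Spn belong to sets whose rules required a called difference of IM3 from IM1 and IM2. Their adjusted p were thus bounded by the choice and are given as a description only.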

How the results depend on the processing

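The count of genes called between IM3 and AM was 8094, and it lay between 8057 and 9429 under the other scalings, without a filter, with DESeq2, voom or a replicate block and in the 6 libraries alone, always within 1.5 times. Leaving out 1 library at a time gave 7252 to 8980 called genes, 4154 to 5001 higher, 3079 to 3979 lower and 4868 to 5253 of at least 2-fold, and 26 to 37, 23 to 36, 50 to 69 and 50 to 73 members for the 4 sets in the order described. Without a required fold the sets held 102, 95, 180 and 202 genes. The replicate block gave 8312 calls. Deviations from the population mean correlated over genes between same-lettered IM3 and AM libraries with r of 0.042, 0.027 and -0.008. The labels do not say whether equal letters share a sort or an animal. These correlations cannot decide it, since a shared origin need not shift the same genes in both populations. Of the 266 tested named genes none reversed, 17 gained a call and 9 lost one under some setting. Those that lost a call were C4b, Egr2, Epor, Ifi30, Itgae, Lsp1, Mrc1, Spn and Zbp1, and the cause was not tested. For named genes and gene lists, only IM3 and AM libraries were left out in turn. Fits without an IM1 or IM2 library are not covered by these counts. The 1 lower class II gene was lost without AM replicate A or C or IM3 replicate C, the 1 lower immediate early gene without AM replicate A or C or IM3 replicate B or C, the 2 lower genes of the CD206-high markers became 1 without IM3 replicate A, and 1 cholesterol synthesis gene was called higher in the 6 libraries alone. A count of 0 in an IM3 or AM library allows up to 0.19 to 0.218 CPM.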

Other observations

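Counts of T cell receptor genes were high in a single library of each of IM3, IM1 and IM2. Gene counts do not show whether the transcripts were rearranged. Trac had 0.0662, 650 and 0 CPM in IM3, 4201, 0.862 and 0 CPM in IM1, 0, 1078 and 0 CPM in IM2 and 0 CPM in every AM library, and was not called between IM3 and AM (edgeR adjusted p = 0.247). The variable segment Trav14n-1 had 518 CPM in IM3 replicate B, 4117 CPM in IM1 replicate A and 903 CPM in IM2 replicate B, the same libraries, and Trav14d-1 had 168, 1018 and 252 CPM there. The 10 T cell markers, Trac included, summed to 86.55 to 745.9 CPM in IM3 and 150.3 to 170.1 CPM in AM (unscaled, as for the markers that follow). Of them Il7r had 32.82 to 35.96 CPM in IM3 and at most 0.392 CPM in AM, Cd2 had 2.038 to 2.596 CPM in IM3 and 149.8 to 169.5 CPM in AM, Cd3d and Lck reached 0.3329 and 0.466 CPM in IM3, and Cd3e and Cd8a were at 0 in all IM3 libraries. Sf1, a splicing factor, was called lower in IM3, with 118, 123 and 118 CPM in IM3 and 149, 154 and 1152 CPM in AM (edgeR adjusted p = 0.0242). Genes better known from other lineages were high in every IM3 library: Ighm averaged 706 CPM in IM3 and 0.477 CPM in AM (adjusted p = 1.46e-13), Cd4 59.7 CPM in IM3 and 0.0701 CPM in AM, and Etv5, a factor of type 2 epithelium, 85.1 CPM in IM3 and 1.27 CPM in AM, while the 10 type 2 cell markers summed to 85.81 to 114.3 CPM in IM3 and 146.1 to 166.8 CPM in AM. Sftpc lay between 4.099 and 12.85 CPM in IM3 and at most 0.5227 CPM in AM, and Epcam at most 0.07278 CPM in IM3 and 65.59 to 67.52 CPM in AM. Nr4a1, an immediate early receptor gene, varied between IM3 replicates, with 566, 300 and 142 CPM in IM3 and 23.2, 15.5 and 17.5 CPM in AM. The values given above for Egr1, Nfkbiz, Fos and Egr2 also fell from IM3 replicate A to B to C. The cause was not tested.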
